A study of Mus musculus with 12 samples.

Results

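The collagen genes were the 38 genes of the array annotation whose symbol was Col, a number, a and a number, out of 15830 genes measured in spinal cord. Their 1365 probesets, each a set of probes within an exon, named no other gene, and their log2 intensities were averaged to give each gene's level. Of those probesets 568 had a mean of at least 5, so that most lay in the dim range of the array. The RNA came from 12 mice on a C57/BL6 background, 3 in each of 4 groups, killed 4 days after the operation, and was hybridised to 1 Affymetrix Mouse Exon array per mouse. Injured EphA4 knockout mice (10 weeks old) and injured wild-type mice (10, 14.5 and 10 weeks) had a lumbar hemisection, in which the left side of the cord was cut after removal of the overlying vertebral laminae. Sham-operated EphA4 knockout mice (12, 9 and 10 weeks) and sham-operated wild-type mice (10 weeks) had the laminectomy without the cut. The knockout removes the EphA4 receptor from all cells, not from a chosen cell type, and each group held 2 males and 1 female by its labels. The piece analysed was 6 mm of bulk tissue from the left of the cord around the lesion, which the labels call the uninjured side and the study's methods the injured side, so that the sources disagree on whether cut tissue was measured. In this tissue more cells of a type and more RNA per cell cannot be told apart. The p-values set a difference between groups against the spread between these mice within groups.

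Collagens are secreted or membrane proteins that assemble as trimers, and they form the bulk of the extracellular matrix. Fibrillar chains (types I, II, III, V, XI, XXIV and XXVII) build the fibrils of connective tissue, which in the central nervous system lies mainly in the meninges and around larger vessels. Type IV chains form the network of basement membranes, which in the cord ensheathe the vessels and border the astrocytes under the pia. Fibril-associated, beaded filament, network-forming, transmembrane and multiplexin collagens link these scaffolds to each other or to cells. By class the 38 genes were 11 fibrillar chains, 6 basement membrane chains, 3 beaded filament chains, 8 fibril-associated chains, 3 network-forming chains, 2 multiplexins, 4 transmembrane collagens and the anchoring fibril gene Col7a1.

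Promoter windows of 300 bases around an annotated start were found in RefSeq (GRCm38.p6) for 31 of the 38 genes. The windows of the α1 and α2 chains of type IV collagen are shown because these genes are transcribed away from each other: their annotated starts lie 21 bases apart on chromosome 8 and on opposite strands. Capitals mark the 78 bases that both windows hold, read on opposite strands. The Col4a1 window is chr8:11312777-11313076 on the minus strand, and the Col4a2 window chr8:11312555-11312854 on the plus strand.
Col4a1: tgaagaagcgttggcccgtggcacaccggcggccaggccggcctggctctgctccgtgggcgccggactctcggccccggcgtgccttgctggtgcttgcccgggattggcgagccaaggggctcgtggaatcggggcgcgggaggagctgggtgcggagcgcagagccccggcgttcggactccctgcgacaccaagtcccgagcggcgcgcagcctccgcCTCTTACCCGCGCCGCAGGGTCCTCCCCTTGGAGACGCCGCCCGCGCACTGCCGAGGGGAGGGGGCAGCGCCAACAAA
Col4a2: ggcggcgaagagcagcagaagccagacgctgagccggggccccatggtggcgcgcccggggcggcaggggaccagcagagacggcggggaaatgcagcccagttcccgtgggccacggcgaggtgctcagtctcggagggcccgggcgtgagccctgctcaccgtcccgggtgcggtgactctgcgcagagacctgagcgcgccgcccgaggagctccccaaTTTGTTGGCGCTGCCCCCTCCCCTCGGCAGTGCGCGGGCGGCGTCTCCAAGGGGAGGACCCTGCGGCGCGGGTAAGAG
For Col4a5 and Col4a6, a pair of type IV genes on the X chromosome, the starts lay 1343 bases apart and the windows shared no base.

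The windows of Col1a2 (chr6:4505368-4505667, plus strand) and Col3a1 (chr1:45311288-45311587, plus strand) are shown because these genes had some of the largest differences between injured and sham-operated cords. Capitals mark CCAAT on either strand, which occurred at 2 places in the Col1a2 window and at 0 in the Col3a1 window.
Col1a2: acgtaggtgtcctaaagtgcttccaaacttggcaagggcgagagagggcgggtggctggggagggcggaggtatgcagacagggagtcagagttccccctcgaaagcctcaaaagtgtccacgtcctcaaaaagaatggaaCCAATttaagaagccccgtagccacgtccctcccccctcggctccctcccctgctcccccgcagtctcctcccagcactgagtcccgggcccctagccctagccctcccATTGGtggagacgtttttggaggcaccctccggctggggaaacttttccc
Col3a1: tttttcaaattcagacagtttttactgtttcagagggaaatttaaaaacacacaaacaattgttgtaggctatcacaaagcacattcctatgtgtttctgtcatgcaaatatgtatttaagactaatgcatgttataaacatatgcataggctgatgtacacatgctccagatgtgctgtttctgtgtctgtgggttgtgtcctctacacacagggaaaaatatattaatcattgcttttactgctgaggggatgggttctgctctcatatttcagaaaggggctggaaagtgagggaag
Over the 34 windows of the collagen genes (some genes have several), CCAAT on either strand was in 35.3%, against 37.4% of all 32851 windows. GGGCGG on either strand was in 58.8% of the collagen windows and 35.7% of all windows. TATAAA on either strand was in 14.7% and 13.6%, and TGANTCA, which reads alike on both strands, was in 2.94% and 7.81%. Each motif was searched by itself, whether or not another overlapped it, and a match describes letters, not a bound factor.

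The labels of genotype were checked with Epha4, the targeted gene, measured by 18 probesets: its level was 4.82, 4.86 and 5.10 in injured knockout cords, against 5.87, 6.24 and 6.11 in injured wild-type cords, and 5.16, 5.19 and 5.15 in sham-operated knockout cords, against 6.66, 6.81 and 6.52 in sham-operated wild-type cords. The genotypes did not overlap in either treatment. Column medians lay between 5.79 and 5.85. Arrays of a group correlated at r = 0.985 to 0.992, over values that are not independent of each other. Sham-operated knockout replicate 2 was labelled male but had the Y-linked Eif2s3y at 3.25, as low as the arrays labelled female (3.21 to 3.49), where the other arrays labelled male had 7.21 to 8.15. As a check of the tissue, neuronal markers averaged 9.08 to 9.84 and oligodendrocyte markers 10.3 to 10.6 over all arrays.

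A pair of arrays stood apart in collagen genes. In sham-operated knockout replicate 1, Col1a1 and Col1a2 were at 9.64 and 9.15, against 5.26 to 7.04 and 5.71 to 6.82 in the other 5 sham-operated cords, and they exceeded the highest of those by 2.61 and 2.34. Among all 15830 genes these were the largest such excesses. They were followed by Ibsp, a sialoprotein of mineralising bone, at 6.67 against 3.62 to 4.35, and Postn, a matrix protein of connective tissue, at 5.86 against 3.53 to 4.30. All 38 probesets of Col1a1 and all 39 of Col1a2 were highest in this array among the sham-operated cords. The other measured cartilage and bone markers did not stand out in it: Acan was at 4.96 there, against 4.65 to 5.06 in the other sham-operated cords, and Sp7 was at 3.68, against 3.71 to 4.66. This array was also the only one of its RNA extraction batch, so that batch and array cannot be told apart. The same holds for injured knockout replicate 3, the only array of batch 4.

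The second array was injured knockout replicate 1, in which 15 of 38 collagen genes (39.5%) were highest among the injured cords, against 11.3% of all genes. Its largest excess was in Igfbp6, a binding protein of insulin-like growth factors, at 8.21 against 5.62 to 6.32 in the other injured cords. Meningeal and fibroblast markers (9 of 10 listed were measured) averaged 7.26 there, against 5.32 to 6.19 in the other injured cords and 4.45 to 5.58 in the sham-operated cords. That array was also the highest injured cord for endothelial markers (6.57, against 5.85 to 6.33 in the others). The same held for pericyte and mural markers (6.45, against 5.93 to 6.33) and nerve root markers (4.98, against 4.35 to 4.73). It was not the highest for macrophage, neuronal, oligodendrocyte, astrocyte, muscle or cartilage and bone markers. In sham-operated knockout replicate 1 the meningeal and fibroblast markers averaged 4.87, within the range of the other sham-operated cords, while 10 of 38 collagen genes (26.3%) were highest in it, against 14.2% of all genes. The part of these arrays' other RNAs in the collagen levels was not tested. Counts of collagen genes are given below with all arrays and without these 2. The 2 arrays were picked by levels that included those of collagen genes, so p-values and calls without them depend on that choice.

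**Figure D1:**
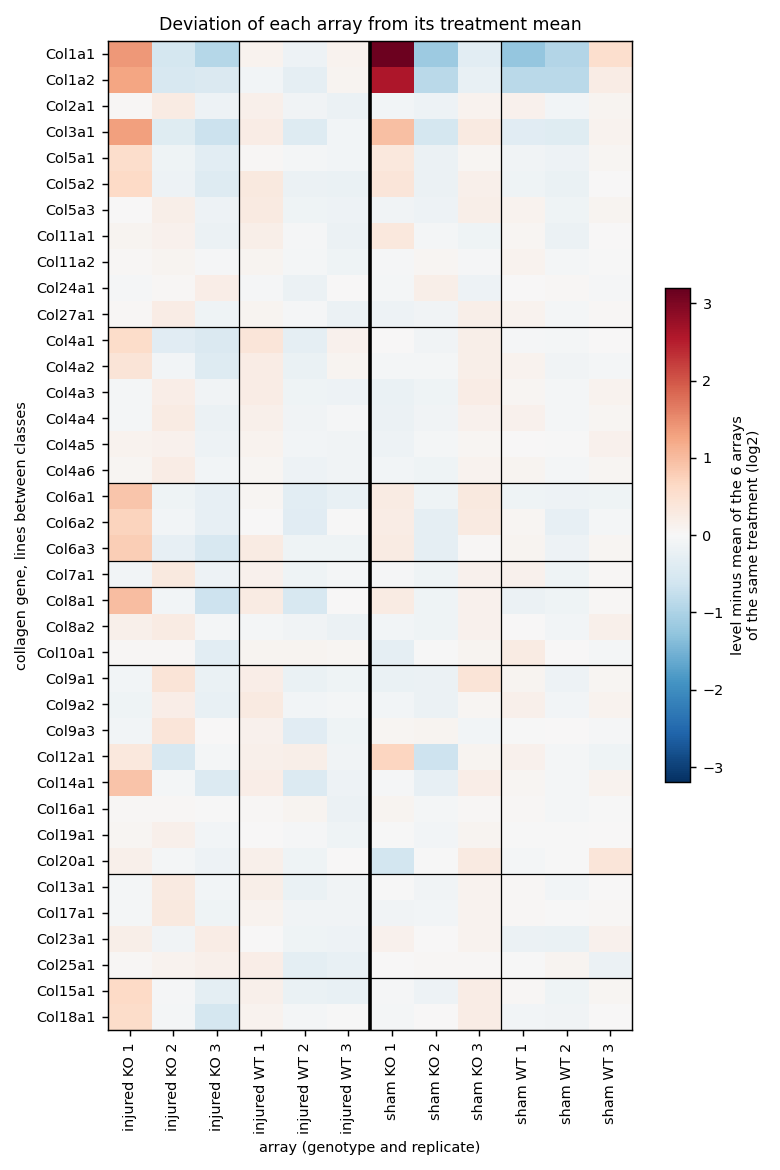
Heat map of the 38 collagen genes (rows, grouped by class) in the 12 arrays (columns, injured left of sham-operated and knockout left of wild-type), coloured by the level minus the mean of the 6 arrays of the same treatment, in log2 units. The dark cells are Col1a1 and Col1a2 in sham-operated knockout replicate 1, and the red column at the left is injured knockout replicate 1, with Col4a1, Col4a2, the type VI chains and Col18a1 above the mean as well.

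Injury was followed by higher levels of collagen genes from several classes. On the mean of both genotypes, fitted with limma over all 12 arrays and called at an adjusted p under 0.05 and a fold of at least 1.2, 13 of 38 collagen genes (34.2%) rose and 3 (7.89%) fell, against 12.8% of all genes higher and 17.0% lower. The median log2 difference, injured minus sham-operated, was 0.14 over the collagen genes and -0.08 over all genes. Largest among the genes called with all arrays were the fibrillar Col3a1, which rose 3.89-fold, the fibril-associated Col12a1, which rose 3.11-fold, and the basement membrane chain Col4a1, which rose 1.96-fold. Without sham-operated knockout replicate 1, 15 collagen genes rose and 3 fell, against 12.1% and 16.6% of all genes. Without both arrays that stood apart, 14 collagen genes rose (36.8%) and 2 fell (5.26%), against 11.3% and 14.8% of all genes. In 6 collagen genes all injured cords lay above all sham-operated cords (Col3a1, Col4a1, Col4a2, Col6a2, Col12a1 and Col16a1), against 8.86% of all genes, and in Col19a1 alone all lay below, against 10.7% of all genes.

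**Figure D2:**
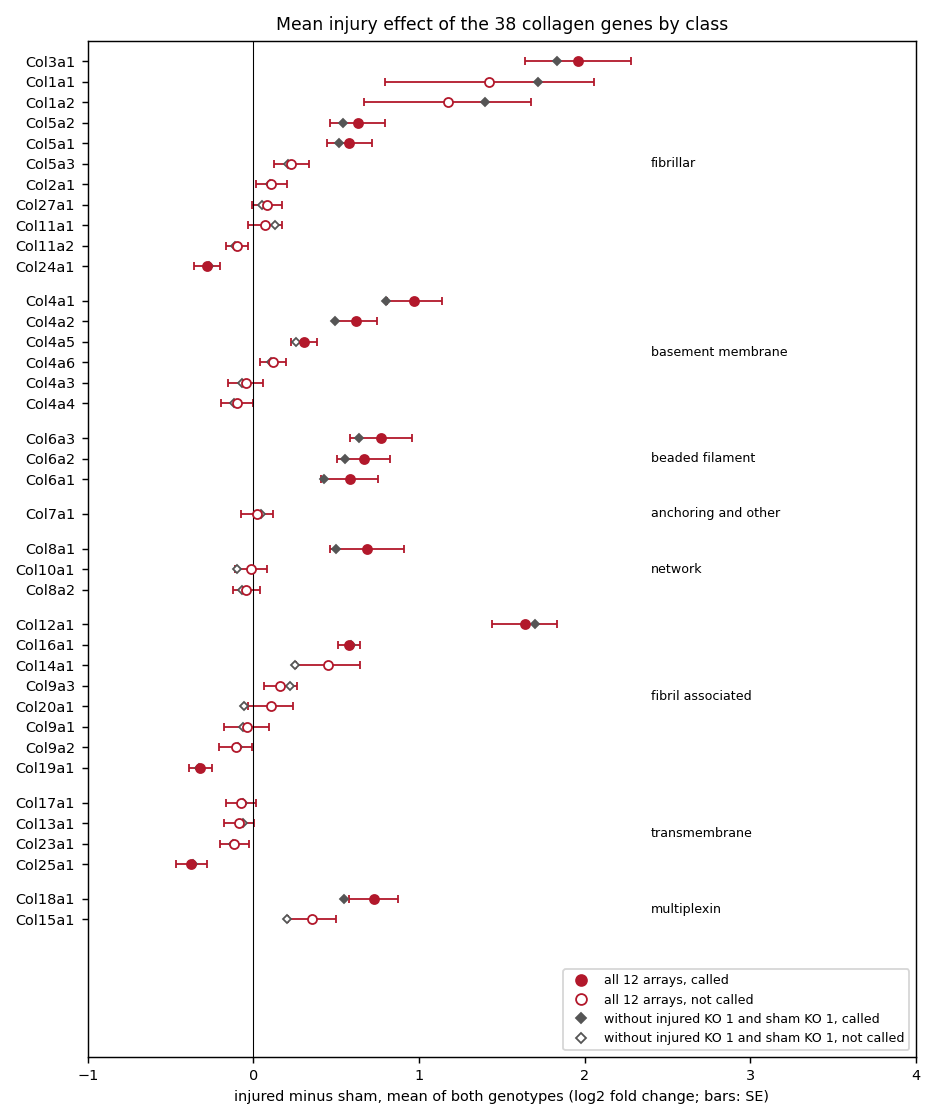
Mean injury effect of each collagen gene, by class (rows), as log2 difference of injured minus sham-operated cords with the standard error of limma (circles, all 12 arrays) and the same without injured knockout replicate 1 and sham-operated knockout replicate 1 (diamonds). Filled symbols passed the thresholds. Col3a1 and Col12a1 lie farthest right, and Col1a1 and Col1a2 have the widest bars and pass only without the 2 arrays.

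Among the fibrillar chains, Col3a1 encodes the chain of type III collagen, the fibril of distensible connective tissue. It was at 8.25, 6.55 and 6.25 in injured knockout and 7.16, 6.51 and 6.85 in injured wild-type cords, against 5.92, 4.40 and 5.25 in sham-operated knockout and 4.60, 4.58 and 5.07 in sham-operated wild-type cords. Every injured cord was above every sham-operated cord, and the mean effect was 1.96 on the log2 scale (SE 0.32, adjusted p = 0.000381). Of its 44 probesets 36 passed the thresholds by themselves, against 7.42% of all probesets.

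Col1a1 and Col1a2 encode the chains of type I collagen, the main fibril of skin, bone and meninges. Col1a1 was at 9.31, 7.37 and 7.03 in injured knockout and 8.05, 7.78 and 8.04 in injured wild-type cords, against 9.64, 5.34 and 6.18 in sham-operated knockout and 5.26, 5.57 and 7.04 in sham-operated wild-type cords. The overlap lay in 2 sham-operated cords, replicate 1 of the knockout above all other arrays and replicate 3 of the wild-type just above the lowest injured cord. The mean effect of 1.42 (SE 0.63) did not pass (adjusted p = 0.103). Without sham-operated knockout replicate 1 it was 2.07 (SE 0.41, adjusted p = 0.00229). Without injured knockout replicate 1 as well it was 1.72 (SE 0.30, adjusted p = 0.00143). Leaving out the highest sham-operated cord raises this difference and narrows the spread by construction. These p-values therefore cannot by themselves decide whether Col1a1 rose.

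For Col1a2 the same sham-operated knockout array was the highest of all. Its levels were 9.02, 7.23 and 7.28 in injured knockout and 7.67, 7.45 and 7.85 in injured wild-type cords, against 9.15, 5.72 and 6.34 in sham-operated knockout and 5.72, 5.71 and 6.82 in sham-operated wild-type cords. The effect was 1.17 (SE 0.50, adjusted p = 0.0914) with all arrays. It was 1.69 (SE 0.32, adjusted p = 0.00171) without sham-operated knockout replicate 1, and 1.40 (SE 0.21, adjusted p = 0.000612) without both arrays. The p-values without arrays have the same limit as for Col1a1. Within RNA extraction batches 1 and 2, the only batches with arrays of every group and both without sham-operated knockout replicate 1, the effects were 2.34 and 2.44 for Col1a1, 1.72 and 2.04 for Col1a2, and 2.12 and 2.67 for Col3a1.

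Type V chains, which regulate the diameter of type I fibrils, had smaller effects. Col5a1 was at 5.38, 4.68 and 4.49 in injured knockout and 4.86, 4.76 and 4.73 in injured wild-type cords, against 4.58, 4.05 and 4.30 in sham-operated knockout and 4.12, 4.08 and 4.29 in sham-operated wild-type cords. Col5a2 was at 5.57, 4.77 and 4.51 in injured knockout and 5.23, 4.74 and 4.72 in injured wild-type cords, against 4.68, 4.10 and 4.46 in sham-operated knockout and 4.15, 4.09 and 4.30 in sham-operated wild-type cords. In both genes the lowest injured cord, knockout replicate 3, fell under the highest sham-operated cord, knockout replicate 1. Col5a1 rose by 0.58 (SE 0.14, adjusted p = 0.0051) and Col5a2 by 0.63 (SE 0.17, adjusted p = 0.0102).

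None of the other 6 fibrillar chains was called higher. Col5a3, the third type V chain, had an effect of 0.23 (SE 0.10, adjusted p = 0.11). The cartilage chains Col2a1, Col11a1 and Col11a2 had effects of 0.11, 0.07 and -0.10, and Col27a1 one of 0.08. Col24a1, a minor fibrillar chain measured by 4 probesets, was the fibrillar chain that fell. It was at 3.30, 3.38 and 3.56 in injured knockout and 3.32, 3.17 and 3.35 in injured wild-type cords, against 3.58, 3.82 and 3.48 in sham-operated knockout and 3.65, 3.66 and 3.58 in sham-operated wild-type cords, dimmer in mean level than most genes of the array. Injured knockout replicate 3 and sham-operated knockout replicate 3 overlapped, and it fell by 0.28 (SE 0.08, adjusted p = 0.0133). Its call was lost when injured knockout replicate 1, injured wild-type replicate 2 or sham-operated knockout replicate 2 was left out, with effects of -0.25, -0.25 and -0.23.

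**Figure D3:**
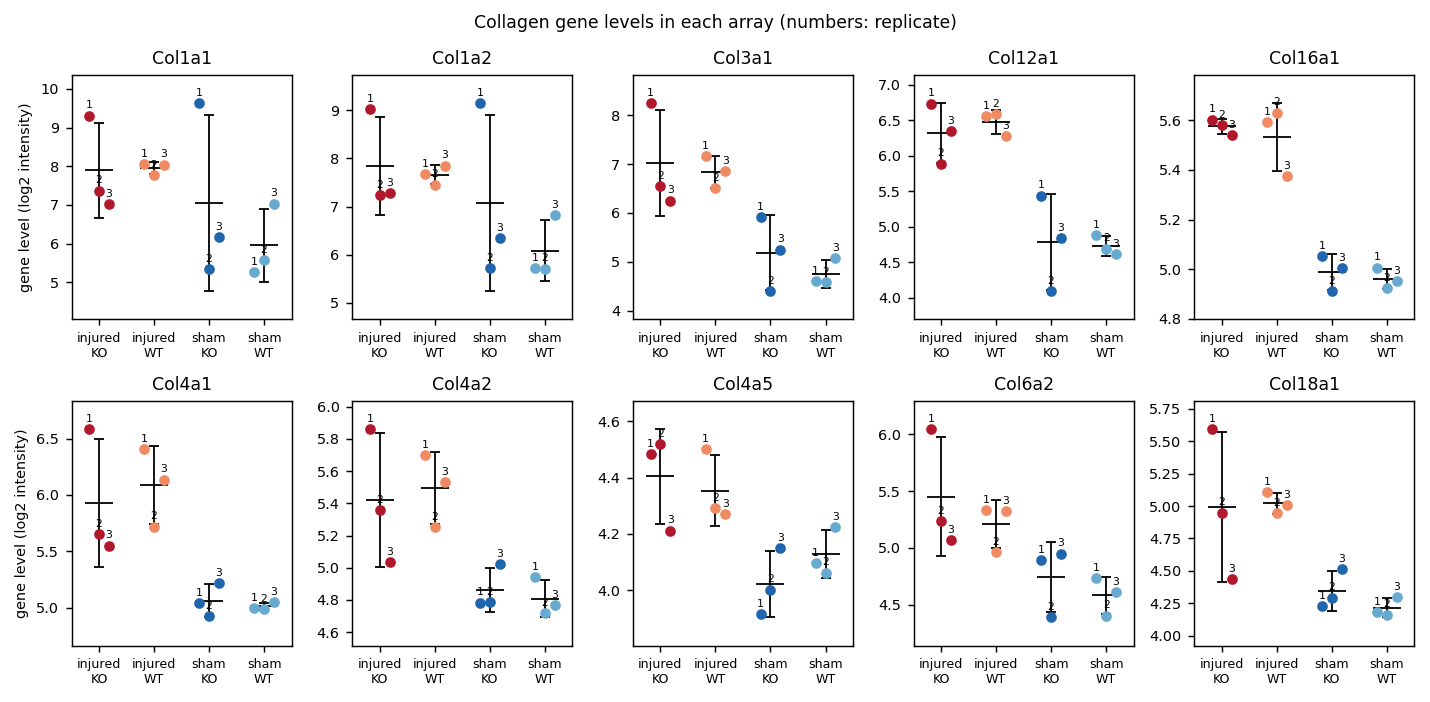
Level of 10 collagen genes in each array (log2 intensity, points numbered by replicate) with group mean and SD (bars, n = 3). Col3a1, Col12a1, Col16a1, Col4a1, Col4a2 and Col6a2 have all injured cords above all sham-operated cords, whereas sham-operated knockout replicate 1 is the highest of all 12 arrays for Col1a1 and Col1a2.

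Of the 6 basement membrane chains, 3 rose and none fell. Col4a1 and Col4a2, which together form the ubiquitous type IV trimer and share the promoter region shown above, rose together. Col4a1 was at 6.58, 5.65 and 5.55 in injured knockout and 6.40, 5.72 and 6.14 in injured wild-type cords, against 5.04, 4.92 and 5.22 in sham-operated knockout and 4.99, 4.98 and 5.05 in sham-operated wild-type cords. Col4a2 was at 5.86, 5.36 and 5.04 in injured knockout and 5.70, 5.25 and 5.53 in injured wild-type cords, against 4.78, 4.79 and 5.02 in sham-operated knockout and 4.94, 4.72 and 4.77 in sham-operated wild-type cords. All injured cords were above all sham-operated cords for both genes, and for both the highest injured cords were knockout replicate 1 and wild-type replicate 1 and the lowest was knockout replicate 3. Col4a1 rose by 0.97 (SE 0.16, adjusted p = 0.00049) and Col4a2 by 0.62 (SE 0.13, adjusted p = 0.00197). Without the 2 arrays they rose by 0.80 (SE 0.13) and 0.49 (SE 0.11), with adjusted p of 0.000708 and 0.00736.

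The remaining type IV chains form the specialised trimers of kidney, cochlea and smooth muscle. Col4a5 was at 4.48, 4.52 and 4.21 in injured knockout and 4.50, 4.29 and 4.27 in injured wild-type cords, against 3.91, 4.00 and 4.15 in sham-operated knockout and 4.10, 4.06 and 4.22 in sham-operated wild-type cords. It rose by 0.30 (SE 0.08, adjusted p = 0.00961), with injured knockout replicate 3 just under sham-operated wild-type replicate 3, and its effect of 0.26 without the 2 arrays did not pass (adjusted p = 0.0625).

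The last 3 type IV chains did not pass and their groups overlapped. Col4a6 was at 3.80, 3.97 and 3.65 in injured knockout and 3.79, 3.58 and 3.63 in injured wild-type cords, against 3.53, 3.49 and 3.73 in sham-operated knockout and 3.72, 3.55 and 3.68 in sham-operated wild-type cords (effect 0.12, SE 0.08). Col4a3 was at 3.91, 4.19 and 3.87 in injured knockout and 4.22, 3.84 and 3.80 in injured wild-type cords, against 3.82, 3.87 and 4.25 in sham-operated knockout and 4.08, 3.94 and 4.14 in sham-operated wild-type cords (effect -0.05, SE 0.10). These 2 genes were among the dimmer collagens, at the 15.8th and 23.8th percentile of mean level over all genes. Col4a4 was at 3.90, 4.23 and 3.78 in injured knockout and 4.13, 3.85 and 3.92 in injured wild-type cords, against 3.88, 3.95 and 4.22 in sham-operated knockout and 4.20, 4.02 and 4.14 in sham-operated wild-type cords (effect -0.10, SE 0.10).

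Set side by side, the fibrillar and basement membrane classes had medians 0.02 apart. The median effect was 0.23 over the 11 fibrillar chains, with 9 of 11 above 0 and values between -0.28 and 1.96, and 0.21 over the 6 basement membrane chains, with 4 of 6 above 0 and values between -0.10 and 0.97. Over all genes it was -0.08. Both classes were split. Col1a1, Col1a2, Col3a1, Col5a1 and Col5a2 had a median effect of 1.17 and the other 6 fibrillar chains one of 0.08. These 5 had the largest fibrillar effects, so the gap follows from how the class was divided. Col4a1 and Col4a2 had a median of 0.80. The other type IV chains had smaller effects, and among them only Col4a5 passed. Without the 2 arrays the medians were 0.21 and 0.18. All 5 of the main fibrillar chains then passed, in a fit that left out arrays picked by levels of such genes.

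Col1a1, Col1a2 and Col3a1 had the widest spread between arrays of a group among the 38 genes. The pooled within-group SD was 1.38 for Col1a1, higher than for 99.98% of all genes, 1.10 for Col1a2 and 0.69 for Col3a1, whereas the highest of the basement membrane chains was 0.34 for Col4a1, near the 0.28 and 0.35 of Col5a1 and Col5a2. The medians were 0.19 over fibrillar chains, 0.18 over basement membrane chains and 0.16 over all genes. For Col1a1 the SD was 1.23 in injured knockout and 0.16 in injured wild-type cords, against 2.28 in sham-operated knockout and 0.95 in sham-operated wild-type cords (n = 3 each), so that the knockout groups held most of it. The excess of sham-operated knockout replicate 1 over the mean of the other sham-operated cords was 3.77 for Col1a1, 3.09 for Col1a2 and 1.14 for Col3a1, against 0.0046 for Col4a1, and none of the 6 basement membrane chains was highest in that array. Injured knockout replicate 1, by contrast, was highest of the injured cords for Col4a1 and Col4a2 as well as for all 5 main fibrillar chains, and exceeded the mean of the other injured cords by 1.66 for Col1a1 and 0.69 for Col4a1.

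**Figure D4:**
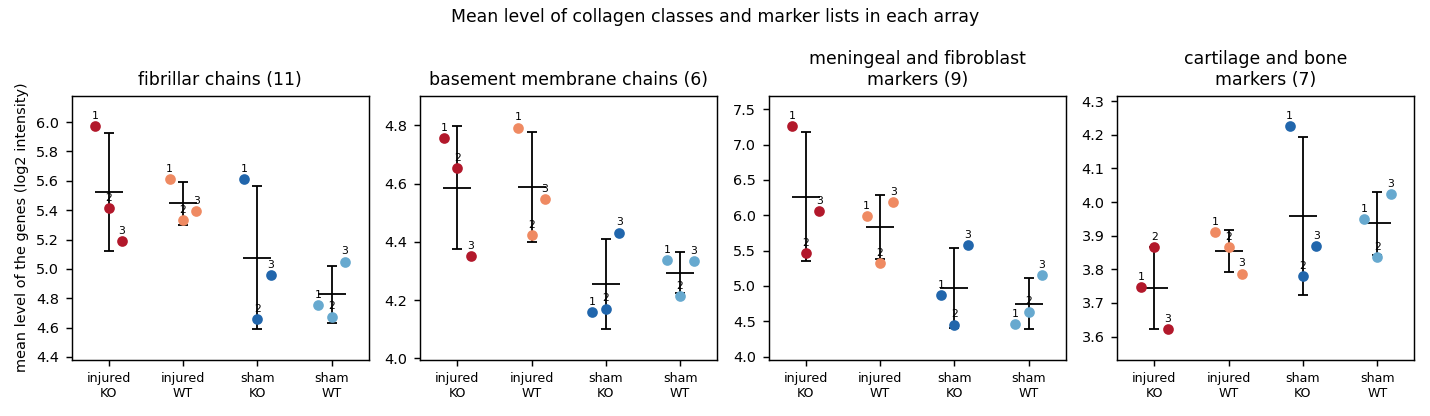
Mean level in each array (log2 intensity, points numbered by replicate, bars for group mean and SD, n = 3) of the 11 fibrillar chains, the 6 basement membrane chains, 9 meningeal and fibroblast markers and 7 cartilage and bone markers. Injured knockout replicate 1 is the highest of all arrays for the fibrillar chains (5.97) and for the meningeal markers (7.26), and sham-operated knockout replicate 1 for the cartilage and bone markers (4.23), where Ibsp is the gene that stands out.

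Type VI collagen, which forms beaded microfilaments at the border of cells and basement membranes, rose in all 3 measured chains. Col6a1 was at 6.10, 5.07 and 4.94 in injured knockout and 5.26, 4.87 and 4.98 in injured wild-type cords, against 4.88, 4.50 and 4.95 in sham-operated knockout and 4.49, 4.45 and 4.48 in sham-operated wild-type cords. Col6a2 was at 6.05, 5.24 and 5.07 in injured knockout and 5.33, 4.97 and 5.33 in injured wild-type cords, against 4.89, 4.39 and 4.95 in sham-operated knockout and 4.73, 4.40 and 4.61 in sham-operated wild-type cords. Col6a3 was at 5.91, 4.84 and 4.59 in injured knockout and 5.38, 4.99 and 4.98 in injured wild-type cords, against 4.60, 4.07 and 4.38 in sham-operated knockout and 4.43, 4.18 and 4.41 in sham-operated wild-type cords. Injured knockout replicate 1 was highest in each, and Col6a2 alone had no overlap between injured and sham-operated cords. The effects were 0.58 (SE 0.17, adjusted p = 0.0173) for Col6a1, 0.67 (SE 0.16, adjusted p = 0.00554) for Col6a2 and 0.77 (SE 0.19, adjusted p = 0.00616) for Col6a3, and they were 0.43, 0.56 and 0.64 without the 2 arrays, each still called.

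Among fibril-associated collagens, which sit on the surface of fibrils, 2 of 8 rose and 1 fell. Col12a1, known from dense connective tissue under load, was at 6.73, 5.89 and 6.34 in injured knockout and 6.56, 6.58 and 6.28 in injured wild-type cords, against 5.44, 4.09 and 4.83 in sham-operated knockout and 4.89, 4.69 and 4.61 in sham-operated wild-type cords. The lowest injured cord was above the highest sham-operated cord, the effect was 1.64 (SE 0.20, adjusted p = 2.9e-05), and 58 of 64 probesets passed by themselves. Col16a1 rose by 0.58 (SE 0.07, adjusted p = 2.09e-05), with levels of 5.38 to 5.63 in injured and 4.91 to 5.05 in sham-operated cords, and had the smallest within-group SD of the 38 genes, 0.08.

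Col19a1, a rare collagen expressed in some neurons, was at 4.27, 4.36 and 4.10 in injured knockout and 4.22, 4.16 and 4.07 in injured wild-type cords, against 4.51, 4.42 and 4.62 in sham-operated knockout and 4.52, 4.51 and 4.54 in sham-operated wild-type cords. Each injured cord was below each sham-operated cord, and it fell by 0.32 (SE 0.07, adjusted p = 0.00269), a call lost with the median of its probesets in place of the mean (-0.29, adjusted p = 0.113). Col14a1, which binds fibrils together, had an effect of 0.45 that did not pass (SE 0.19, adjusted p = 0.0943), and was at 5.31 in injured knockout replicate 1, against 3.94 to 4.58 in the other injured cords. The type IX chains of cartilage and Col20a1 had effects between -0.11 and 0.16.

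Of the multiplexins, collagens of vascular and epithelial basement membranes, Col18a1 rose. This gene, the precursor of endostatin, was at 5.59, 4.95 and 4.43 in injured knockout and 5.11, 4.95 and 5.005 in injured wild-type cords, against 4.22, 4.29 and 4.51 in sham-operated knockout and 4.18, 4.16 and 4.30 in sham-operated wild-type cords. Injured knockout replicate 3 was the cord that overlapped, and the effect was 0.73 (SE 0.15, adjusted p = 0.00195). Col15a1 had an effect of 0.35 (SE 0.15, adjusted p = 0.0799).

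Col8a1, a network-forming chain of vessel walls, was at 4.12 to 5.78 in injured cords, against 3.90 to 4.36 in sham-operated cords, and rose by 0.69 (SE 0.23, adjusted p = 0.0313). That call was lost when any of injured wild-type replicates 1 and 3, sham-operated knockout replicate 2 or sham-operated wild-type replicates 1 and 2 was left out, with effects between 0.60 and 0.68. Its partner Col8a2 and the hypertrophic cartilage gene Col10a1 had effects of -0.04 and -0.01. The anchoring fibril gene Col7a1 had an effect of 0.02.

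None of the 4 transmembrane collagens rose. Col25a1, a neuronal collagen known as the precursor of a component of amyloid plaques, was at 4.65, 4.72 and 4.78 in injured knockout and 4.83, 4.28 and 4.36 in injured wild-type cords, against 4.997, 5.01 and 5.02 in sham-operated knockout and 4.97, 5.07 and 4.79 in sham-operated wild-type cords. Injured wild-type replicate 1 and sham-operated wild-type replicate 3 overlapped, and it fell by 0.37 (SE 0.09, adjusted p = 0.00719), a call also lost with the median of probesets (-0.36, adjusted p = 0.0524). Col13a1, Col17a1 and Col23a1 had effects between -0.12 and -0.07. The 5 measured neuronal markers all fell as well, with a median of -0.54, and the part of neurons in the levels of Col19a1 and Col25a1 was not tested.

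Taken by genotype, 8 collagen genes rose and 0 fell after injury in EphA4 knockout cords, against 8.98% and 11.5% of all genes, and 8 rose and 3 fell in wild-type cords, against 11.2% and 12.9% of all genes. Col3a1, Col12a1, Col16a1, Col4a1, Col4a2 and Col18a1 rose in both. In knockout cords the calls of Col4a1, Col4a2 and Col18a1 were lost without injured knockout replicate 1, with effects of 0.54, 0.33 and 0.35 and adjusted p of 0.0528, 0.188 and 0.156. They were lost too without sham-operated knockout replicate 1 or 2, and without both arrays that stood apart, where the effects were 0.53, 0.29 and 0.29. Of 24 alternatives, 17 lost the knockout call of Col18a1, 14 that of Col4a2 and 6 that of Col4a1. For Col18a1 it was lost whichever array was left out, wild-type arrays included, other than injured knockout replicate 3. The knockout call of Col3a1 was lost without sham-operated knockout replicate 2 (1.43, adjusted p = 0.061), and the wild-type call of Col4a2 without injured replicate 1 or sham-operated replicate 2, while Col12a1 and Col16a1 kept theirs in both genotypes whichever array was left out. The difference between the responses was called for 0 collagen genes and for 0 of all 15830 genes, so that no gene called in a single genotype was shown to respond differently. The smallest p of that difference among collagen genes were those of Col8a2 (0.30, SE 0.16, adjusted p = 0.873), Col4a6 (0.20, SE 0.16, adjusted p = 0.907) and Col4a5 (0.16, SE 0.16, adjusted p = 0.939), and at an unadjusted p under 0.05 there were 0 collagen genes. The largest difference in size was that of Col1a1, -1.15 (SE 1.26), which was 0.14 without sham-operated knockout replicate 1, -2.01 without sham-operated knockout replicate 2 and 0.27 with extraction batch as a fixed term.

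These counts rested on single arrays. In knockout cords the count of collagen genes that rose was 3, 5 and 15 without injured knockout replicates 1, 2 and 3, 5 and 2 without sham-operated knockout replicates 1 and 2, 5 without injured wild-type replicate 3, 5 when any 1 of the 3 sham-operated wild-type arrays was left out, and 4 without both arrays that stood apart. Over the fits that left out 1 array, between 7.08% and 9.24% of all genes were higher, with 7.08%, 8.98% and 9.24% without injured knockout replicates 1, 2 and 3. All genes gave 7.09% higher and 7.54% lower without sham-operated knockout replicate 1, and 5.60% and 4.13% without both arrays. Without injured knockout replicate 2, 1 collagen gene also fell. In wild-type cords the count that rose was 5 without injured replicate 1, 5 without sham-operated replicate 2 and 14 without the 2 knockout arrays (all genes 11.1% higher and 11.6% lower), which enter that comparison only through the shared estimate of spread. The count that fell in wild-type cords was 1, 0, 1 and 1 without injured replicates 2 and 3 and sham-operated replicates 1 and 2. Over the wild-type fits that left out 1 array, between 8.61% and 11.9% of all genes were higher, and the 4 fits named for genes that fell gave 11%, 7.30%, 9.79% and 8.96% lower.

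Genotypes were also compared within each treatment, at the thresholds of the study (unadjusted p under 0.01 and fold of at least 1.2). In injured cords 0 of 38 collagen genes were called, against 0.133% of all genes higher and 0.663% lower in the knockout, and in sham-operated cords 0 of 38 were called, against 0.373% higher and 0.973% lower. At an unadjusted p under 0.05 there were 0 collagen genes in injured cords and 1 in sham-operated cords. The median difference, knockout minus wild-type, was 0.07 over the collagen genes in injured cords and 0.01 in sham-operated cords.

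In injured cords the smallest p were those of Col8a2, Col23a1 and Col25a1. Col8a2 was at 4.34, 4.43 and 4.11 in injured knockout cords, against 4.11, 4.05 and 4.00 in injured wild-type cords, a difference of 0.24 (SE 0.12, adjusted p = 0.998), and at 4.12, 4.08 and 4.35 in sham-operated knockout cords, against 4.24, 4.13 and 4.37 in sham-operated wild-type cords. Col23a1, a transmembrane collagen, was at 5.90, 5.62 and 5.95 in injured knockout cords, against 5.74, 5.58 and 5.55 in injured wild-type cords, and at 5.97, 5.86 and 5.95 in sham-operated knockout cords, against 5.65, 5.62 and 5.98 in sham-operated wild-type cords. Its differences of 0.20 (SE 0.13, adjusted p = 0.998) and 0.18 (SE 0.12, adjusted p = 0.858) had the same sign and overlapping arrays in both treatments. For Col25a1 the difference in injured cords was 0.23 (SE 0.15, adjusted p = 0.998).

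Col1a1 was not called between genotypes with all arrays. The sign of its difference turned with the array left out in sham-operated cords, and between extraction batches in injured cords. In injured cords Col1a1 differed by -0.06 (SE 0.49, adjusted p = 0.998) with all arrays and by -0.76 (SE 0.16) without injured knockout replicate 1, which passed the unadjusted threshold (adjusted p = 0.78), as did 0.259% of all genes higher and 0.625% lower. Within extraction batch 1 the difference was -0.54, and within batch 2, whose knockout array was injured knockout replicate 1, it was 1.26. In sham-operated cords Col1a1 differed by 1.10 (SE 0.95, adjusted p = 0.894) with all arrays and by -0.20 (SE 0.48, adjusted p = 0.992) without sham-operated knockout replicate 1, and within batches 1 and 2 by 0.08 and -0.13. In sham-operated cords the smallest p were those of Col6a1 (0.30, SE 0.13, adjusted p = 0.786) and Col5a2 (0.24, SE 0.15, adjusted p = 0.855), ahead of Col23a1. Without sham-operated knockout replicate 2, the array whose Y-linked genes went against its label, Col3a1 (0.84) and Col6a1 (0.44) passed the unadjusted threshold as higher in the knockout. In that fit 55 of all 15830 genes were called higher and 99 lower. The contrast then held sham-operated knockout replicate 1 as 1 of its 2 knockout arrays.

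Genes that make, process and bind collagen were read from lists, whose counts stand against 12.8% of all genes higher and 17.0% lower with all arrays and 11.3% and 14.8% without the 2 arrays. Of 14 measured genes of prolyl and lysyl hydroxylation and glycosylation, which modify the chains in the endoplasmic reticulum, 11 rose and 1 (Glt25d2, a collagen galactosyltransferase) fell, with a median of 0.72. P4ha3, a prolyl 4-hydroxylase subunit, was at 5.95, 6.27 and 6.48 in injured knockout and 6.26, 6.36 and 6.44 in injured wild-type cords, against 5.06, 4.84 and 4.95 in sham-operated knockout and 4.93, 4.98 and 4.997 in sham-operated wild-type cords. Injured knockout replicate 1 was the lowest injured cord for this gene, and it rose by 1.33 (SE 0.09, adjusted p = 1.22e-07). The lysyl hydroxylases Plod2, Plod3 and Plod1 rose by 1.33, 0.84 and 0.77. The list averaged 6.63 to 6.92 in injured cords and 6.08 to 6.23 in sham-operated cords, with no overlap. Sham-operated knockout replicate 1 was the highest sham-operated cord, at 6.23. A mean over 14 genes can vary less than single genes, so its spread is not comparable with that of the type I chains. With all arrays Lepre1, a prolyl 3-hydroxylase, was the only gene of the lists of making, processing and binding collagen called between genotypes. It was higher by 0.46 in sham-operated knockout cords, and it is named after its values were seen. Without the 2 arrays, 1 of the cross-linking genes below was also called, lower in injured knockout cords.

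Of 6 measured genes of propeptide processing 2 rose: Bmp1, the C-proteinase of fibrillar procollagens, by 1.34 (SE 0.08) and its enhancer Pcolce by 1.41 (SE 0.30), while Tll1 and Adamts2 had effects of -0.24 and -0.21 that did not pass with all arrays and passed as lower without the 2. Of 4 measured lysyl oxidase-like genes, which cross-link collagen and elastin, 3 rose: Loxl2 by 1.28, Loxl3 by 1.05 and Loxl1 by 0.96, and Loxl4 had an effect of -0.05. Of 7 measured collagen receptors 5 rose, among them the integrin subunit Itgb1 by 0.97, the leukocyte receptor Lair1 by 1.01 and the discoidin domain receptors Ddr1 and Ddr2 by 0.58 and 0.91. The 2 receptors not called were the measured integrin α subunits of the list. Sec23a, a subunit of the coat of secretory vesicles and the only measured gene of its list of chaperones and secretion, had an effect of -0.25 (adjusted p = 0.029), a fold under 1.2.

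Of 10 measured partners of type IV collagen in basement membranes 8 rose, with a median of 0.71, against 12.8% of all genes higher and a median of -0.08: the nidogen Nid2 by 1.09, the laminin chains Lamc1 and Lama4 by 0.79 and 1.17, and Sparc, a collagen-binding glycoprotein, by 0.34 were those with the smallest p. Without the 2 arrays, where 11.3% of all genes were higher, the counts that rose were 10 for hydroxylation, 2 for propeptide processing, 3 for cross-linking, 5 for receptors and 7 for basement membrane partners. Among markers of the cells known to make collagen, 3 of 9 meningeal and fibroblast genes rose (Dcn and Lum by 2.56 each and Aldh1a2 by 1.99), 3 of 7 pericyte and mural genes (Acta2, Cspg4 and Pdgfrb) and 5 of 8 endothelial genes. All 6 macrophage markers rose, with a median of 2.62, and 3 of 6 astrocyte markers rose while Slc1a2, a glutamate transporter, fell by 0.30. None of the 7 skeletal muscle and 3 nerve root markers was called higher, although muscle markers averaged 6.17 in injured wild-type replicate 1 against 4.12 to 4.58 in all other arrays. The part of these cells in the collagen levels was not tested.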

How the data were processed

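RNA of 12 spinal cords was hybridised to Affymetrix Mouse Exon arrays. The authors normalised the core probesets by RMA in Partek (mm9 per the submitters' processing notes) and deposited 1 log2 intensity per probeset and array, with no gene summary. Of 194262 probesets 179614 named 1 gene and were averaged into 15830 genes (median 9 probesets), while 1331 that named several genes and 13317 that named none were left out. The labels name the uninjured left side of the cord as the tissue and the study's methods the injured left side, and they also differ on the amount of RNA.

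Injury contrasts were fitted over all 12 arrays with limma 3.58.1 in R 4.3.3 (statmod 1.5.0), with calls made at p under 0.05 after Benjamini-Hochberg adjustment over all genes, where the fold was at least 1.2. Genotype contrasts were fitted within sham-operated or within injured arrays, called at an unadjusted p under 0.01 and the same fold, after the study's methods. Scripts were tested on simulated data. The members and lists were chosen with earlier results of these data known. Every collagen gene could be named, with values per array for the type I, III, IV, V and VI chains, the 5 largest increases, all called decreases and the 3 smallest p of each genotype contrast and of the difference of responses, and for other lists up to 4 genes of smallest p. Alternatives were the median of probesets, a probeset floor of 5, a level filter, renewed quantile normalization, extraction batch as random block or fixed term, replicate block, array weights, an ordinary linear model and leaving out arrays. The arrays number 3 per group, which limits the precision.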

Additional observations from a re-analysis of the deposited data

How the results depend on the processing

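Leaving out each array in turn gave 12 to 15 collagen genes higher and 2 to 3 lower for the mean injury effect, 2 to 15 higher and 0 to 1 lower in knockout cords, 5 to 12 higher and 0 to 3 lower in wild-type cords, 0 to 2 higher between genotypes in sham-operated cords and 0 to 1 lower in injured cords. The difference of the fibrillar and basement membrane medians ranged between -0.02 and 0.04. With the median of probesets, 1 collagen gene was lower on the mean (Col19a1 and Col25a1 lost their calls), 4 were higher in knockout cords, and 5 were higher and 1 lower in wild-type cords. Over all 15830 genes that setting gave 2185 lower on the mean, 1070 higher in knockout cords, and 1386 higher and 1095 lower in wild-type cords. The main fit gave 2685, 1421, 1774 and 2035. Among genes above the median level, which left 5 collagen genes and no class difference because no basement membrane chain remained, 1 was higher and 0 lower on the mean, 1 was higher in knockout cords, and 1 was higher and 0 lower in wild-type cords. Of all 7915 genes kept there, 1170 were higher and 2108 lower on the mean. In knockout cords 858 were higher, and in wild-type cords 1192 were higher and 1739 lower. Quantile normalization again gave 1 lower in knockout cords, where 1859 of all genes were lower, against 1821 in the main fit. Extraction batch as a random block gave 5 higher in knockout cords, and as a fixed term 17 in knockout and 14 in wild-type cords, where arrays alone in their batch carry no weight. Over all genes the random block gave 1350 higher in knockout cords. The fixed term gave 1085 in knockout and 1703 in wild-type cords. Array weights gave 15 higher in knockout cords and 1 (Col6a1) higher between genotypes in injured cords. Over all genes, array weights gave 1862 higher in knockout cords, against 1421 in the main fit. Between genotypes in injured cords they gave 173 higher and 380 lower, against 21 and 105. An ordinary linear model gave 3 higher and 1 lower in knockout cords and 5 higher in wild-type cords. Over all genes it gave 1223 higher and 1581 lower in knockout cords and 1559 higher in wild-type cords. Without both arrays that stood apart, 4 were higher in knockout and 14 in wild-type cords, and 1 (Col1a1) was lower between genotypes in injured cords. The counts over all genes were then 887, 1760 and 99. The difference of responses turned to 0.27 for Col1a1 and 0.29 for Col1a2 with batch as a fixed term and to 0.50 for Col3a1 with array weights, and the cause was not tested. With the replicate number as a block, 13 were higher and 3 lower on the mean, 8 and 0 in knockout cords, and 10 and 2 in wild-type cords. The same counts over all genes were 2014 and 2660, 1370 and 1666, and 1714 and 1842. The numbers gave no sign of pairing the arrays, as 5 of 18 same-numbered pairs correlated over 0.1, against 11 of 36 differently numbered pairs. Of the values of single genes under all alternatives, 2735 kept their sign and their side of the threshold, 116 lost the call and 65 gained it. The sign changed in 165, none of them called in either fit, and in 3 of these, the differences of responses given above, both values were at least 1.2-fold.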
